A study of Mus musculus with 19 samples.

Results

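Cluster N8 is 1 of 16 clusters of neurons that the authors named in their table of neurons from the mouse medial amygdala. Its members are the cells whose deposited name ends in N8: 138 of the 2444 cells in that table, and 138 of the 20679 cells in the authors' table of all cells, from which every gene was read. The data are from Drop-seq, which catches single cells in droplets with barcoded beads and counts transcripts by unique molecular identifiers (UMIs). All libraries used here came from male C57BL/6J mice and were dissociated with Act-Seq, a protocol that limits transcription during dissociation. The groups were untreated naive mice (6 libraries, all from mice aged 8 weeks), mice affected by seizure (2 libraries, aged 9 and 8 weeks), mice under acute immobilization stress (4 libraries, aged 8, 9, 9 and 8 weeks) and mice acutely exposed to odors (4 libraries, aged 9, 9, 8 and 8 weeks). Neither the agent that caused the seizures nor the odors are given in the sources used here. Whether each library is from its own animal is not stated. The p-values below therefore rest on the spread among libraries alone, which may be technical. The naive libraries hold 50 N8 cells, the seizure libraries 20, the immobilization libraries 31 and the odor libraries 37.

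The medial amygdala receives signals from the main and accessory olfactory systems and acts in social, reproductive and defensive behavior. Many of its neurons release GABA, the main inhibitory transmitter, which is made by the glutamate decarboxylases Gad1 and Gad2 and loaded into vesicles by Slc32a1. Its excitatory neurons carry vesicular glutamate transporters such as Slc17a6 and Slc17a7. Many neurons of either kind also release peptides, stored with granins such as Scg2 and Chgb in dense-core vesicles.

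The N8 cells hold 406295 UMIs in all, with a median of 2295 per cell (1234 to 12448) and a median of 1275 genes per cell (711 to 4015). The median UMI count of the other clusters lies between 1835 and 3201, so N8 is of middling depth. The 138 barcodes occur in 15 libraries, and 0 of them recurs in another library of the table of all cells. Of the cells, 19 lie far above the median, at over 2 times its UMI count. No doublet caller was run, and the part of doublets was not tested. The table of all cells carries a second name for each of these cells: 129 are in the neuron class, 7 in the astrocyte class, 1 in the endothelial class and 1 in the class of oligodendrocyte precursors.

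Every N8 cell had a UMI of at least 1 of the GABA genes Gad1, Gad2 and Slc32a1 (138 of 138, exact 95% binomial interval 97.4% to 100%, counting error only). Gad2 was found in 109 cells (79.0%), Slc32a1 in 52 (37.7%) and Gad1 in 45 (32.6%). Few cells had UMIs of all 3 genes: 54 cells had Gad2 alone, 13 Slc32a1 alone, 11 Gad1 alone, and 8 cells had all 3. At this depth a gene without a UMI may still be expressed, so these counts do not show separate kinds of cells. In the 29 cells with no Gad2 UMI the median depth was 1886 UMIs, against 2521 in the 109 cells with one. All cells of N3 to N7 also had 1 of the 3 genes, as did 80.2% of N1, 96.7% of N2, 17.9% to 24.5% of N9 to N11 and 7.92% of the astrocyte class. The sources used here do not say whether the authors assigned cells by these genes.

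Because the clusters were made from the expression of these same cells, differences between N8 and other clusters are given as descriptions, with no test. Levels are CPM, the UMIs of a gene in the summed cells scaled to a common total of UMIs. Gad2 stood at 468 CPM in N8, within the range of N1 to N7 (354 to 588 CPM) and far above N9, N10 and N11 (26.3 to 38.9 CPM). With each cell thinned to 600 UMIs, Gad2 was found in 28.3% of N8 cells, 21.9% to 35.3% of cells in N1 to N7 and 0% to 2.56% in N9 to N11. In the astrocyte class, which should lack the gene, the unthinned share was 5.40% of 500 cells at a median depth of 1468 UMIs, and the thinned share was 1.20%. In Gad2, N8 thus lay with N1 to N7. Across the 11 libraries with at least 5 N8 cells, Gad2 ranged from 253 to 629 CPM with a median of 477 CPM, and it was above the remaining neurons in 11 of 11. Against N1 to N7 it was higher in 5 of 11 libraries, and the median over those 7 clusters was 538 CPM.

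Glutamate genes were scarce in N8. Slc17a6, the vesicular transporter typical of subcortical excitatory neurons, had a UMI in 14 cells (10.1%, against 1.40% of the astrocyte class) and Slc17a7, its cortical counterpart, in 5 cells (3.62%, against 0%). All 19 cells with either also had a GABA gene, and their median depth of 2859 UMIs was above the 2254 of the rest. For comparison, Slc17a6 was found in 56.4% of N9 cells and Slc17a7 in 31.3% of N10 cells. No N8 cell had a UMI of Th, Hdc, Slc18a2 or Slc5a7, which mark catecholamine, histamine, monoamine and cholinergic neurons. Of 10 monoamine and glycine genes listed, only 4 are in the table, and 1 of these had UMIs in N8 (4.92 CPM). Of 3 acetylcholine genes listed, only 1 is in the table. In the whole cluster 3 UMIs would be 7.38 CPM, so a gene at a lower level could go unseen at this depth.

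**Figure D1:**
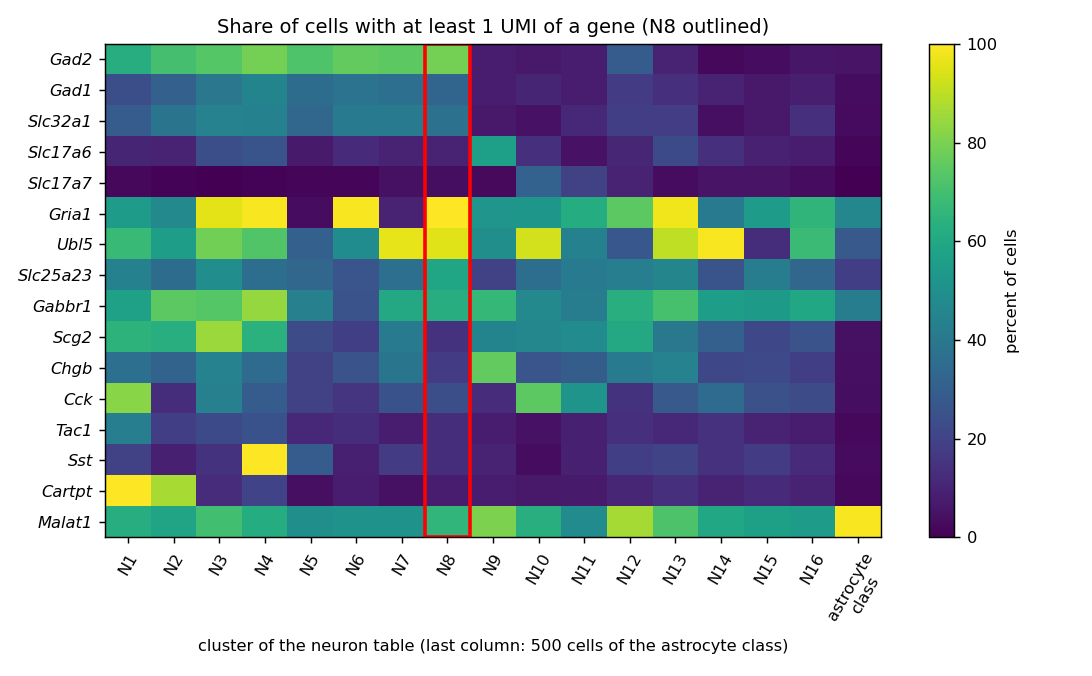
Share of cells with at least 1 UMI (color, percent) for 16 genes in rows and the 16 neuron clusters in columns, with 500 astrocyte-class cells last and N8 outlined. N8 has Gad2 in 79.0%, Gria1 in 100% and Ubl5 in 94.9% of its cells, while Scg2 (14.5%), Sst (13.0%) and Cartpt (7.97%) are rare.

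Among the GABA clusters, N8 held a combination of genes that was singled out after their values were seen. Gria1, an AMPA-type glutamate receptor subunit that mediates fast excitation, had a UMI in all 138 cells. Its level was 815 CPM, the highest of the 16 clusters, against 787 CPM in N12, 766 CPM in N13 and a median of 529 CPM over the other 15. Within N1 to N7 the same gene was near-universal in N3, N4 and N6 (96.0% to 99.1% of cells) and rare in N5 (3.23%) and N7 (10.1%). Astrocyte-class cells held it in 46.2%, at 492 CPM, so its presence alone does not mark a neuron in these data. By library Gria1 in N8 ran from 568 to 1170 CPM, above the pooled N1 to N7 in all 11 libraries. That pool includes N5 (13.9 CPM) and N7 (43.7 CPM), while N6 (738 CPM) and N4 (735 CPM) were close to N8. Such counts of libraries describe clusters made from these same cells and are no independent support.

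Ubl5, a small ubiquitin-like protein that acts in pre-mRNA splicing, was found in 131 N8 cells (94.9%). Its share in N1 to N7 went from 30.6% in N5 to 96.4% in N7, and N10, N13 and N14 were at 93.2%, 90.6% and 99.0%. Thinned to equal depth, the gene was in 39.1% of N8 cells and in 4.03% to 36.0% of cells in N1 to N7. The 3 traits together, a GABA gene with Gria1 and Ubl5, were met by 131 N8 cells (94.9%). They were met by 74.8% of N3, 72.0% of N4, 48.7% of N6 and 38.5% of N1. The shares were 28.6% in N2, 10.1% in N7 and 1.61% in N5, and 32.0% in N13. Adding the absence of Scg2, Cartpt, Sst and Cck left 68 N8 cells (49.3%) and 28 N6 cells (24.8%). It left at most 3.31% of any other cluster among N1 to N7, and 9.43% of N13. Between N8 and N6, the next highest, Slc25a23, a mitochondrial calcium-regulated carrier of ATP-Mg and phosphate, was found in 58.7% of N8 and 26.5% of N6, and Gabbr1, a GABA-B receptor subunit, in 62.3% and 25.7%.

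These genes lie, in the mm10 build (mouse GENCODE annotation), at chromosome 2 from 22622205 to 22693874 on the plus strand (Gad2), at chromosome 11 from 57011387 to 57330244 on the plus strand (Gria1) and at chromosome 9 from 20642878 to 20647140 on the plus strand (Ubl5). Scg2 lies at chromosome 1 from 79434669 to 79440120 on the minus strand. All of them are annotated as protein-coding.

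Some granin and processing genes were low in N8, although the list of 10 such genes summed to 13074 CPM, against a median of 12181 CPM over the other clusters. Scg2, secretogranin II, a precursor that dense-core vesicles store and cleave, stood at 68.9 CPM, the lowest of the 16 clusters, against 1240 CPM in N12 and a median of 407 CPM over N1 to N7. It was found in 14.5% of N8 cells, in 18.6% to 84.8% of cells in N1 to N7 and in 4.6% of the astrocyte class. In the 11 libraries Scg2 ranged from 0 to 130 CPM in N8, below the 265 to 589 CPM of N1 to N7 in every library. Chgb, chromogranin B, was also lowest in N8 (73.8 CPM, median of the other 15 clusters 176 CPM), as was Pcsk2, a convertase that cuts peptide precursors (19.7 against 46.4 CPM). Of the 9 genes of the granin and processing list with a mean of at least 20 CPM, these 3 were at least 1.5-fold lower in N8, beside 193 of 7190 genes (2.68%) over the whole table at the same minimum. The others were not: the carboxypeptidase Cpe was in all N8 cells (9747 against 8667 CPM), and Pcsk1n and Scg3 were within 0.1 of the other clusters on the log2 scale.

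Of 43 neuropeptide genes listed, 31 are in the table, 22 had a UMI in N8, and only Cck, cholecystokinin, reached 20% of the cells (23.9%). Cck stood at 167 CPM against 700 CPM in N1. Tac1, the substance P precursor, was in 13.0% of N8 cells and at 51.7 CPM against 416 CPM in N1. Sst, somatostatin, was also in 13.0% of N8 cells, while it was in all cells of N4. Cartpt was in 7.97% of N8 cells and in all cells of N1; Npy was in 8.70%, Penk in 7.25% and Pnoc in 5.07%. The astrocyte class had shares of 3.6% for Cck, 2.20% for Tac1, 2.80% for Sst, 2.20% for Cartpt and 3.00% for Npy, all below N8, whose cells were deeper. Thinned to equal depth, Cck was in 6.52% of N8 against 0.8% of the astrocyte class and Tac1 in 4.35% against 0.4%. Sst (2.2% against 1.0%) and Cartpt (1.45% against 0.8%) were then close to that background. Summed over the list, N8 had 556 CPM, near the lowest cluster (531 CPM) and below the median of the others (770 CPM). Of the 11 listed peptide genes with a mean of at least 20 CPM, 1 was at least 1.5-fold higher in N8 and 1 as far lower. Over all 7190 such genes, 0.960% were higher and 2.68% lower. The median log2 fold of the 11 was 0.12, so the typical peptide gene was not lower in N8. No single peptide was shared across N8: 90 cells (65.2%) had at least 1 of the peptides, 39 at least 2 and 15 at least 3.

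Most receptor genes in N8 were within 1.5-fold of the other clusters. Of 50 peptide receptor genes listed, 38 are in the table and 24 had a UMI in N8; Ntsr2, a neurotensin receptor known from astrocytes, stood at 1039 CPM (median of the others 1013 CPM), and Ramp1, a subunit of the CGRP receptor, at 665 CPM (668 CPM). Ntsr2 was found in 83.3% of N8 cells and 92.6% of the astrocyte class. Adcyap1r1, the PACAP receptor, was at 148 CPM (164 CPM). Trhr, the receptor for thyrotropin-releasing hormone, was lowest in N8, at 2 UMIs (4.92 CPM, median of the others 24.3 CPM), and Prlr, the prolactin receptor, was at 12.3 against 30.4 CPM.

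Among 14 steroid and thyroid receptor genes, 13 are in the table, and 0 of the 8 with a mean of at least 20 CPM differed by 1.5-fold. Thra, the thyroid hormone receptor alpha, was in 91.3% of N8 cells (948 CPM), Nr3c1, the glucocorticoid receptor, in 29.7% (155 against 158 CPM), and Rora, a nuclear receptor of the retinoid-related orphan kind, in 26.1%. Among glutamate receptors, Gria1 was the only one of 14 with a mean of at least 20 CPM that was 1.5-fold higher; Gria2 was at 389 CPM (459 CPM), the metabotropic Grm5 at 113 CPM (118 CPM) and the NMDA subunit Grin2b at 106 CPM (86.4 CPM). None of the 13 GABA and glycine receptor genes with a mean of at least 20 CPM differed by 1.5-fold. Gabbr1 and Gabbr2 stood at 381 and 150 CPM. Of the monoamine and acetylcholine receptors, the adenosine receptor Adora1, listed with them, was the only one in at least 20% of N8 cells (26.1%).

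Counted over all genes with a UMI in at least 20% of N8 cells, few set the cluster apart: 14 of 2184 were at least 1.5-fold above the median of the other 15 clusters (CPM with 20 added), and 19 of 1968 genes with a median of at least 100 CPM in those clusters were as far below. The same count gave 709 and 526 genes for N9 and 972 and 1136 for N12, but 4 and 11 for N15. After Gad2 (2.24-fold), the leading genes were Stxbp6, a binder of syntaxin (1.87-fold, 128 CPM), Kcne1l, an accessory potassium channel subunit (1.69-fold), Cacnb3, a calcium channel beta subunit, Slc25a23, the formin Fmnl2 and the Munc18-interacting adaptor Apba1. These genes are of low level, and Stxbp6 was found in 26.8% of N8 cells and 6.52% after thinning. Against the median of N1 to N7 alone, 15 genes were higher and 27 lower, and neither Gad2 nor Gad1 was among the higher ones.

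After Scg2, the lowest genes relative to the other clusters were Lpgat1, an acyltransferase (49.2 against 126 CPM), Chgb, Khdrbs1, an RNA-binding protein (59.1 against 119 CPM), the kinase-anchoring Akap9, the RNA polymerase subunit Polr2g and Nos1, neuronal nitric oxide synthase (56.6 against 103 CPM). Nos1 was in 15.2% of N8 cells and reached 259 CPM in N13. Correlated over the 3343 genes of the neuron table, N8 was most like N13 (Pearson r = 0.982), N15 (0.981) and N16 (0.981), with N3 at 0.981, and least like N12 (0.760) and N9 (0.876). These values describe summed profiles that share libraries and abundant transcripts. N13, N15 and N16 had Gad2 in 9.84%, 3.32% and 5.97% of their cells and N3 in 73.5%, so the profile lay as close to a GABA cluster as to clusters with little Gad2. Over all genes of the larger table r was 0.974 for N13, 0.972 for N15, 0.972 for N3 and 0.971 for N16.

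The neuron label was checked against markers of neurons and glia. Genes found across neurons were above the astrocyte class: the synaptic protein Snap25 was at 549 CPM in N8 and 73.7 CPM in the astrocyte class, and the 13 pan-neuronal genes summed to 3899 CPM against 821 CPM. The same list summed to 81815 CPM in the highest cluster, N12, and to a median of 4030 CPM over the others. It includes the noncoding RNA Meg3, which made up most of the sum in N12. Astrocyte markers were high at the same time. Aldoc, a glycolytic enzyme of astrocytes, was at 5383 CPM in N8 and 5268 CPM in the astrocyte class, and the glutamate transporter Slc1a2 at 5058 and 6029 CPM. The gap junction protein Gja1 and the water channel Aqp4 were lower than in that class (938 against 4307 CPM and 431 against 2094 CPM). Summed over 18 markers, the astrocyte list reached 52491 CPM in N8, against 84398 CPM in the astrocyte class and 10343 to 59946 CPM in the other neuron clusters, and 0 of the 18 markers was at 0. How far this RNA came from other cells or from free transcripts was not tested, and it lies beside every level given for N8.

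**Figure D2:**
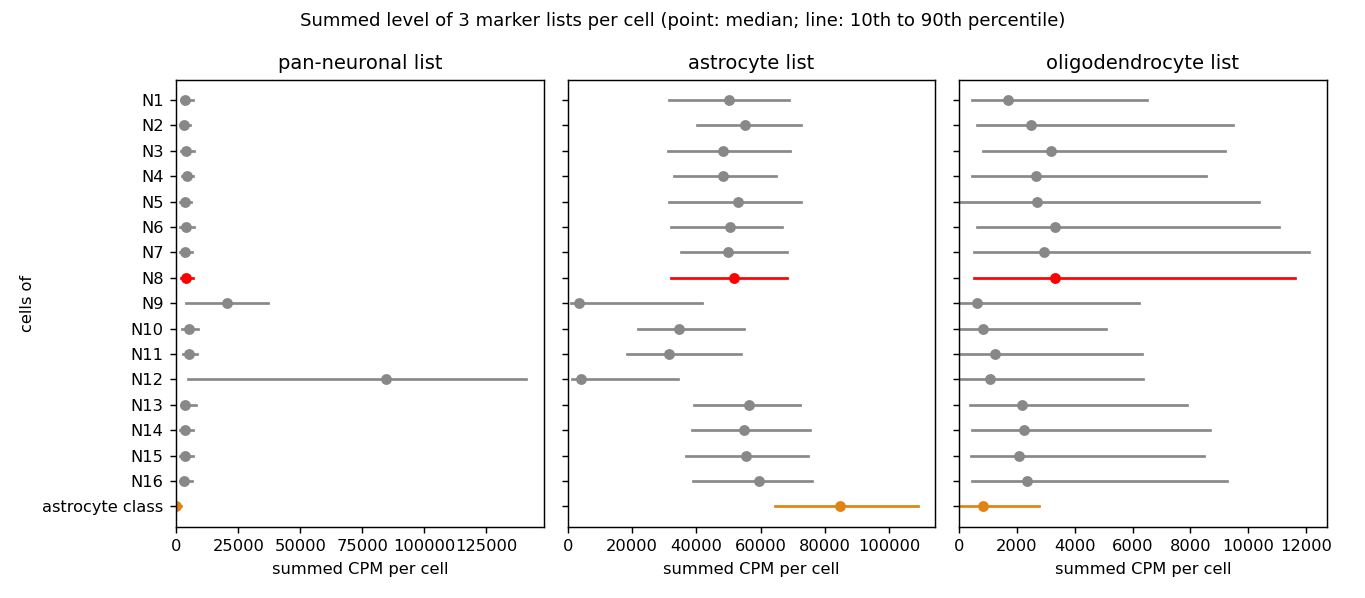
Summed level per cell of the pan-neuronal, astrocyte and oligodendrocyte lists (CPM, points the median over cells, lines the 10th to the 90th percentile) in each neuron cluster and in the astrocyte class. N8 (red) lies with most clusters, at a median of 3715 CPM for the pan-neuronal and 51808 CPM for the astrocyte list, whereas N9 stands at 20532 and 3579 CPM. The pan-neuronal list includes the noncoding RNA Meg3.

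Oligodendrocyte transcripts were higher in N8 than in any other cluster when summed (5179 CPM, others 1730 to 4813 CPM). Mbp, the myelin basic protein, was at 2592 CPM and Mobp, another myelin protein, at 687 CPM. Of the 10 genes of the list with a mean of at least 20 CPM over the clusters, 5 were at least 1.5-fold above the other clusters, beside 69 of 7190 genes (0.960%) over the whole table. The distribution was uneven: the sum over the list was 3305 CPM in the median N8 cell, below the 3331 CPM of the median N6 cell, and 34369 CPM in the highest N8 cell.

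Malat1, a long noncoding RNA kept in the nucleus, split the N8 cells. It had no UMI in 47 cells, while 9 cells above 5000 CPM (9238 to 27439 CPM) held 84.4% of its 1125 UMIs; the next cell stood at 3937 CPM. That threshold was chosen after the data were seen. The 9 cells were deep, with a median of 6506 UMIs against 2233 in the other 129, and lay in naive 1 (2 cells), naive 3 (4), seizure 1 (1), immobilization 2 (1) and odor 1 (1). Their summed astrocyte list was 60730 CPM against 50859 CPM in the rest, and their pan-neuronal list 2694 against 4137 CPM. The astrocyte class had Malat1 in 99.2% of its cells at 23089 CPM, and N8 as a whole in 65.9% at 2769 CPM. Meg3, a noncoding RNA of neurons, was at 222 CPM in N8, against 10547 CPM in N9 and 61706 CPM in N12.

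The share of N8 among the neurons overlapped between all groups. In naive libraries 1 to 4 it was 6.12%, 5.30%, 9.22% and 3.16% of the cells in the neuron table, in seizure libraries 1 and 2 it was 3.03% and 6.43%, in immobilization libraries 1 to 3 it was 4.58%, 4.42% and 6.38%, and in odor libraries 1 to 3 it was 6.25%, 4.96% and 8.49%. Libraries naive 5, naive 6, immobilization 4 and odor 4 hold only 10, 5, 15 and 5 cells of the neuron table, with 1, 1, 1 and 0 cells of N8, and were left out. The mean was 5.95% ± 2.51 (SD, n = 4) in naive libraries, 4.73% ± 2.40 (n = 2) after seizure, 5.13% ± 1.09 (n = 3) after immobilization and 6.57% ± 1.79 (n = 3) after odor. Two-sided exact permutation tests gave p = 0.600 for seizure (smallest possible 0.0667), 0.686 for immobilization and 0.743 for odor (smallest possible 0.0286 for both), or 0.743 for each after Benjamini-Hochberg adjustment over the 3 comparisons. With so few cells per library, the exact 95% intervals of single libraries were as wide as 0.656% to 8.95% (naive 4).

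**Figure D3:**
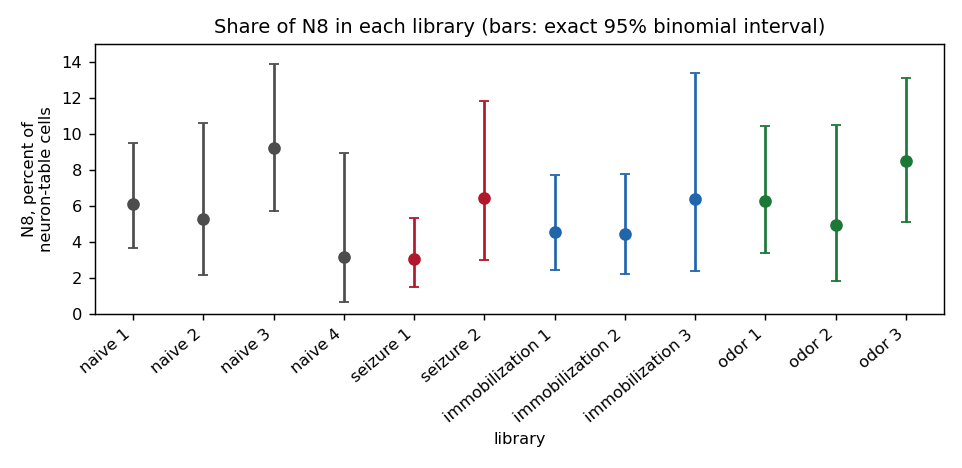
N8 as a percentage of the neuron-table cells of each library (points) with exact 95% binomial intervals (bars, counting error only), colored by group. The points run from 3.03% in seizure 1 to 9.22% in naive 3, and the 4 groups overlap.

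Within N8, immobilization was the only comparison with called genes. Counts were summed over the N8 cells of each library with at least 5 of them (3 naive, 2 seizure, 3 immobilization and 3 odor libraries, 132 cells), and 836 genes that passed a filter on low counts were tested with edgeR's quasi-likelihood test in 1 fit. After immobilization 4 genes rose at an adjusted p under 0.05 and 0 fell, which is 0.478% of the genes tested. Mt2, Mt1 and Tsc22d3 are described here. In bulk sums of a cluster, a change per cell and a change in which cells hold a transcript cannot be told apart.

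Tsc22d3 (also called Gilz), a transcriptional regulator that glucocorticoids induce in many tissues, was at 37.8, 127 and 90.4 CPM in the 3 naive libraries and at 381, 352 and 850 CPM in the 3 immobilization libraries. The groups did not overlap, although they rest on 2, 3 and 7 naive UMIs and 12, 14 and 11 after immobilization, of which 1 cell held 5 of the 11 in immobilization 3. Its log2 fold change was 2.56 (SE 0.64, edgeR adjusted p = 0.0295, higher in 3 of 3 libraries). In N1 to N7 of the same libraries Tsc22d3 was at 102, 304 and 170 CPM in naive and 361, 430 and 346 CPM in immobilization libraries, and over all cells of each library at 188 to 357 CPM and 745 to 862 CPM. The higher level was thus seen outside N8 too. Without the filter on low counts the call in N8 was lost (edgeR adjusted p = 0.132). The call was lost without naive 1 (adjusted p = 0.247), naive 3 (0.0729), immobilization 1 (0.0746), immobilization 2 (0.0616) or immobilization 3 (0.294), with log2 fold changes from 2.16 to 2.81, without odor 1 (0.0564), with age as a covariate (0.443), with at least 10 N8 cells a library (0.0957) and without the 5% of cells with the most UMIs (0.161).

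The metallothioneins Mt1 and Mt2, small proteins that bind zinc and copper and that glucocorticoids and metals induce, rose together. Mt2 was at 1684, 2504 and 1253 CPM in naive and 2796, 4098 and 3786 CPM in immobilization libraries, without overlap (log2 fold change 1.05, SE 0.22, edgeR adjusted p = 0.00223). Mt1 was at 6224, 7596 and 6173 CPM in naive and 9880, 11440 and 8654 CPM in immobilization libraries, again without overlap (0.63, SE 0.15, edgeR adjusted p = 0.0177). Both lie next to each other on chromosome 8 in mm10, Mt2 from 94172664 to 94173568 and Mt1 from 94179082 to 94180327, both on the plus strand. Without the filter on low counts both calls were lost (edgeR adjusted p = 0.894 each). The call of Mt2 was also lost without naive 1 (adjusted p = 0.0521), naive 3 (0.0765) or immobilization 2 (0.0619). That of Mt1 was lost without naive 1 (0.139), naive 3 (0.0729), immobilization 1 (0.336), immobilization 2 (0.342), seizure 1 (0.117), seizure 2 (0.146), odor 1 (0.0537) or odor 2 (0.0583) and without the 5% of cells with the most UMIs (0.153), and both were lost with age as a covariate (0.0877 each). A single N8 cell held 64 of the 163 Mt2 UMIs and 170 of the 455 Mt1 UMIs of immobilization 2. In seizure libraries Mt2 was at 3149 and 2925 CPM, also above all naive libraries, without passing (log2 fold change 0.78, edgeR adjusted p = 0.478). In odor libraries Mt2 was at 3014, 3157 and 2882 CPM, all above the naive libraries, but that comparison did not pass (log2 fold change 0.77, edgeR adjusted p = 0.191) except without naive 2 (0.0105) or with at least 10 N8 cells a library (0.00728). In N1 to N7, Mt2 was at 1770, 2815 and 1441 CPM in naive and 2553, 3172 and 2880 CPM in immobilization libraries, which overlap, while Mt1 was at 5987, 8030 and 6324 CPM against 8188, 9153 and 8524 CPM, which do not. Over all cells of each library the groups did not overlap for Mt2 (1183 to 1908 against 2286 to 3021 CPM) or Mt1 (4302 to 5355 against 6297 to 7672 CPM), so the higher levels were seen across the libraries and not in N8 alone. Astrocytes express both genes strongly, and the astrocyte list in N8 summed to 49112 to 54027 CPM in naive and 54551 to 58809 CPM in immobilization libraries, with at most 1 of its 18 markers at 0 in a library; its part in the result was not tested. Mt1 is itself on that list and in these sums, so its own rise is part of the gap between them. Of the 15 members tested, Mt1 was the only 1 called. Among the 15, 9 had a positive log2 fold change, and the median was 0.07.

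Tsc22d3, Mt1 and Mt2 belong to a list of 21 genes raised by glucocorticoids. The list was chosen with earlier results of these data known, so its count is a description and no support for a cause. Of its 4 members that passed the filter on low counts, 3 rose and 0 fell after immobilization, beside 4 of all 836 genes (0.478%). Glul, the fourth member, had a log2 fold change of 0.14 (SE 0.19). The median of the 4 was 0.84 on the log2 scale, set by the called Mt1 and Mt2, beside 0.00233 over all 836 genes. After seizure the median of the same 4 was 0.40 and after odor 0.63, with 0 called in either; all 3 comparisons share the naive libraries. Fkbp5, Sgk1 and Nfkbia, further members, were too low to pass, so they have no test. Fkbp5, a chaperone partner of the glucocorticoid receptor, was at 18.9, 0 and 51.7 CPM in naive and 0, 126 and 77.3 CPM in immobilization libraries of N8, and the kinase Sgk1 at 0, 42.4 and 0 against 31.8, 50.3 and 0 CPM, so both overlap. Nfkbia, an inhibitor of NF-kB, was at 18.9, 42.4 and 51.7 CPM in naive and 31.8, 151 and 309 CPM in immobilization libraries of N8, which also overlap. These N8 values rest on 1, 1 and 4 UMIs in naive and 1, 6 and 4 in immobilization libraries. Those of Fkbp5 and Sgk1 rest on at most 5 and 2 UMIs in a library. In N1 to N7 Nfkbia was at 18.2, 33.8 and 57.9 CPM in naive against 138, 187 and 282 CPM in immobilization libraries.

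Oligodendrocyte markers were followed in the same libraries. Their list summed to 3692 to 4956 CPM in naive and 4903 to 8190 CPM in immobilization libraries, with 0 to 7 and 0 to 3 of its 12 markers at 0. Mobp had a log2 fold change of 0.57 (SE 0.30, edgeR adjusted p = 0.985), Mbp 0.08 and Cnp -0.01. None of these 3 passed. Of the 4 list members tested, 1 was called higher, and the sums above include all 12 members. The part of oligodendrocyte RNA in the results after immobilization was not tested.

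Whether these genes changed more in N8 than in N1 to N7 was tested on the log2 difference between N8 and N1 to N7 in each library. The genes were chosen for their rise in N8 in these same libraries, so the values lean toward a larger change in N8. The difference moved by 1.35 for Tsc22d3 (exact permutation p = 0.10), 0.44 for Mt2 (0.10) and 0.22 for Mt1 (0.200). With 3 libraries on each side a two-sided p cannot be under 0.10, and the p adjusted over the 4 called genes was 0.200 for each of these 3, so a larger change in N8 could not be shown.

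**Figure D4:**
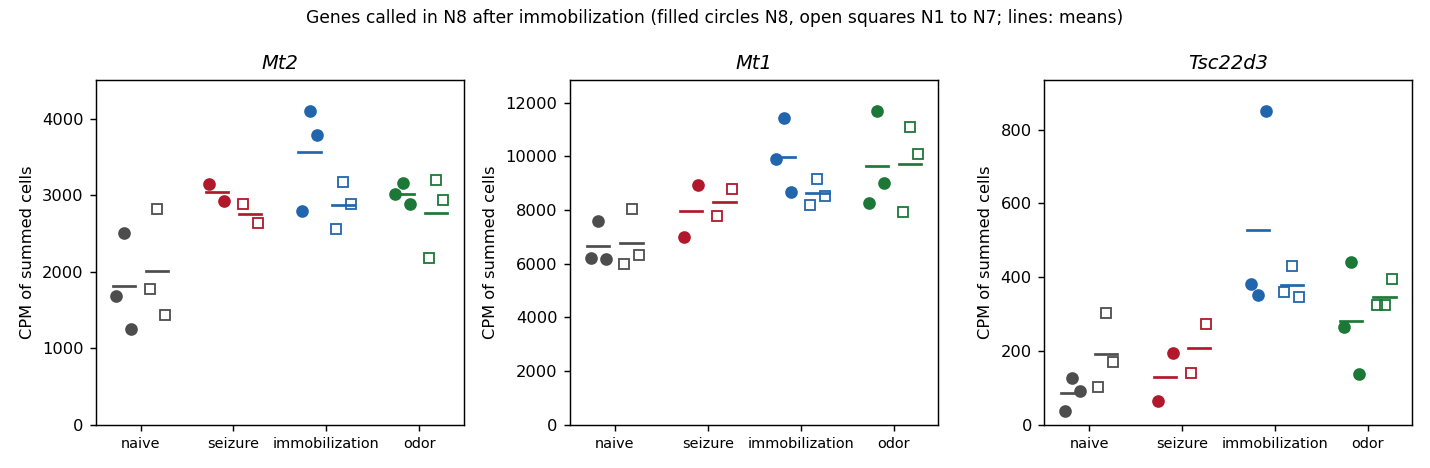
Level (CPM of the summed cells of a library) of Mt2, Mt1 and Tsc22d3, called after immobilization, in N8 (filled circles) and in N1 to N7 (open squares), by group, with group means as lines. In N8 the 3 immobilization libraries lie above the 3 naive libraries for each gene, whereas Mt2 in N1 to N7 overlaps between these groups.

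Seizure against naive called 0 of 836 genes with edgeR (background 0%), with 44 genes at an unadjusted p under 0.05; DESeq2 called 0 as well, with 19 at an unadjusted p under 0.05. The smallest edgeR adjusted p was 0.388, for Hmgcs1, an enzyme of cholesterol synthesis, at 454, 891 and 478 CPM in naive and 162 and 146 CPM in seizure libraries (log2 fold change -1.85, SE 0.51). Odor against naive called 0 of 836 as well (background 0%), with 43 genes at an unadjusted p under 0.05 in edgeR and 17 in DESeq2, of which 0 passed; the smallest edgeR adjusted p was 0.191. Gria1 and Gad2 did not pass in any comparison. For Gria1 the log2 fold changes were 0.62 (SE 0.30) after seizure, 0.10 (SE 0.28) after immobilization and 0.16 (SE 0.27) after odor, and for Gad2 they were -0.12 (SE 0.42), 0.49 (SE 0.34) and 0.24 (SE 0.33).

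Immediate early genes, which neurons transcribe within minutes of activity, were low in N8. Of 26 listed, 25 are in the table and 21 had a UMI; they summed to 509 CPM, against 404 to 900 CPM in the other clusters. Per the labels, the odor libraries entered the authors' work for cell typing alone and gave no values of these genes there. Jund, a constitutive member of the AP-1 family, gave 30 UMIs in naive, 9 in seizure, 12 in immobilization and 9 in odor libraries. Fos, induced by activity, gave 2 UMIs in 1 naive cell, 7 in 3 seizure cells, 0 in immobilization and 3 in 3 odor cells. These counts are not scaled. The N8 cells hold 168459 UMIs in naive, 51312 in seizure, 85844 in immobilization and 100680 in odor libraries, so raw counts cannot be compared directly between groups.

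Summed over the list and per library, the level was 435, 467 and 439 CPM in naive, 649 and 1365 CPM in seizure, 445, 578 and 773 CPM in immobilization and 386, 379 and 392 CPM in odor libraries. Both seizure libraries were above all naive ones, and all 3 odor libraries below them; the immobilization libraries overlapped with naive. On the log2 scale with 50 CPM added, the difference from naive was 1.00 for seizure (9.96 ± 0.72, SD, n = 2, against 8.96 ± 0.05, n = 3; exact permutation p = 0.10), 0.35 for immobilization (p = 0.200) and -0.19 for odor (p = 0.10). Without seizure 1 the seizure difference was 1.51 and without seizure 2 it was 0.49; without immobilization 1 that of immobilization was 0.53 and without immobilization 3 it was 0.17. With at least 10 N8 cells a library they were 0.52, with 1 seizure library left, and 0.19. The smallest two-sided p that these designs allow is 0.10, and the adjusted values were 0.150, 0.200 and 0.150, so none could pass.

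The other neurons, clusters N1 to N11 without N8, were also higher in both seizure libraries. They stood at 477, 584 and 490 CPM in naive and 1152 and 1433 CPM in seizure libraries. The log2 difference between N8 and these neurons changed by -0.24 after seizure (exact permutation p = 0.700), 0.37 after immobilization (p = 0.300) and -0.05 after odor (p = 0.800), with an adjusted p of 0.800 for each. A response of N8 apart from that of its neighbors was thus not detectable with 2 or 3 libraries a group.

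**Figure D5:**
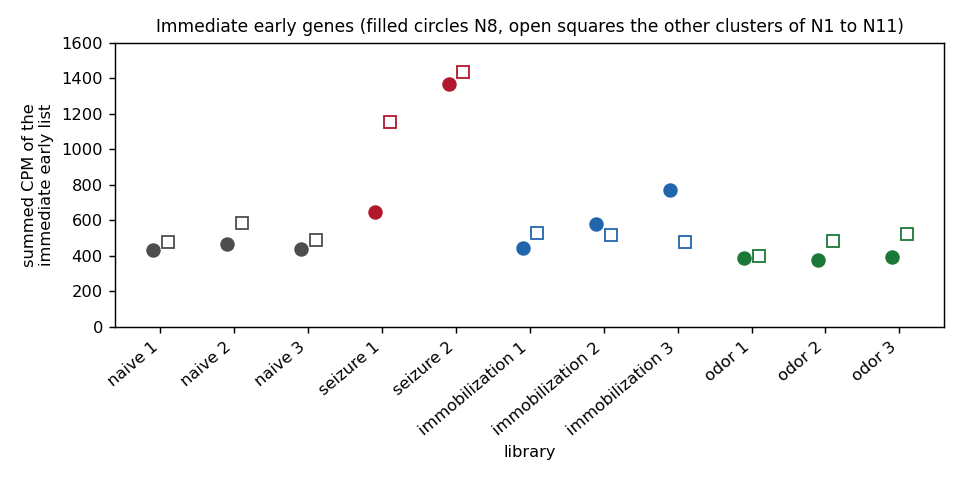
Summed CPM of the immediate early list in each library, in N8 (filled circles) and in the other clusters among N1 to N11 (open squares), colored by group. Both seizure libraries are highest in the other neurons (1152 and 1433 CPM), and N8 reaches 649 and 1365 CPM there against 435 to 467 CPM in naive libraries.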

How the data were processed

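The values are UMI counts, whole numbers for each gene in each cell, as deposited by the authors. Base calls came from bcl2fastq 2.17.1.14 and alignment from STAR 2.5.0a to mm10, per the submitters' processing notes, while the counting tool, the cell filters and strand use were not given in the sources used here. Counts of the neuron table are identical to those of the table of all cells. Cluster N8 and the cell classes are the authors'. The members and gene lists (32 lists, 660 genes) were chosen with earlier results of these data known.

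Counts were summed per cluster and per library and scaled to CPM, which for 3' UMIs is not divided by length, so levels of different genes are not ranked against each other. In the N8 sums, 1 UMI is worth 12.9 to 77.3 CPM in the libraries used. Groups were compared over libraries with at least 5 N8 cells by edgeR 4.0.16 (quasi-likelihood test, TMM, filterByExpr, Benjamini-Hochberg) and by exact permutation (scipy 1.17.1); shares used libraries with at least 20 neuron-table cells. Simulated counts for 836 genes had changes in 200 of them. The fit recovered 49% of changes of 1 and 93% of changes of 2 on the log2 scale for immobilization. It recovered 32% and 87% for seizure, and 47% and 92% for odor. It also called 5, 6 and 4 unchanged genes in these comparisons, in that order. The adjustment is more lenient with 200 changed genes than with few, so the recovery of a few changed genes may be lower. Genes were named by rule: 25 leading and 15 low genes, the 4 highest and 2 largest folds of a list, the transmitter genes and all called genes; others were chosen after their values were seen, among them Ubl5, Gabbr1, Malat1, Hmgcs1, Fkbp5, Sgk1 and Nfkbia. Libraries from the saline control and the conventional dissociation were not used here. The results of 1 called gene are not reported here.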

Additional observations from a re-analysis of the deposited data

How the results depend on the processing

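The 4 genes called after immobilization stayed called with DESeq2 (1.42.0), without TMM, with the replicate block and, added after seeing the data, with robust shrinkage in edgeR. The count there was 1 without the filter on low counts (12699 genes tested), 2 with age as a covariate, and 1 to 6 leaving out 1 library, with 1 without naive 1, 2 without naive 3, 2 without immobilization 1 and 2 without odor 1. Of 76 refits of these 4 genes, 48 kept the call, 28 lost it and 0 reversed. These totals include the gene not reported here, and the losses were uneven, with more for Mt1 and Tsc22d3 than for Mt2. With at least 10 N8 cells a library, 2 of the 4 stayed called (6 calls in all), and 2 did without the top 5% of cells (3 in all). The only call without the filter, and 1 of the 2 with age, was Malat1, lower. After seizure and odor nearly all calls in refits were Malat1, lower, the others being Mt2 and, without naive 3, Fabp7 alone (after seizure 1 gene without the top 5% of cells, 1 with age and 0 to 1 leaving out a library; after odor 1, 1 and 0 to 2, and also 1 without the filter, 2 with at least 10 cells and 1 with the replicate block), but DESeq2 and robust shrinkage gave it an adjusted p of at least 0.960, and its level rests on 9 cells. The 15 same-numbered pairs of libraries had correlations of deviations from their group means of -0.0705 to 0.0521. The other pairs had -0.0524 to 0.0812. With sums of so few cells and means over 2 or 3 libraries, these values cannot tell whether the numbers pair the samples.

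The share of N8 kept no direction: the odor difference was -4.04 points with all libraries, -0.0671 with all cells as denominator and -0.31 with the replicate block, and leaving out a library gave -0.346 to 1.71 for odor, -1.75 to 0.265 for immobilization and -2.92 to 0.479 for seizure. The immediate early difference between N8 and other neurons ran from -0.595 to 0.118 for seizure and -0.157 to 0.0111 for odor leaving out a library. Genes at least 1.5-fold higher in N8 numbered 23 against N1 to N11, 35 with 5 CPM added and 31 as a mean over libraries. Against N1 to N7, chosen after seeing the data, the log2 folds of Gad2 and Gad1 were -0.19 and -0.28. At 20 seizure cells, small changes could not be seen.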
